A study of Mus musculus with 9 samples.

Results

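Imprinted genes are genes of which mainly 1 parental copy is transcribed. Here 35 of them, of 54232 gene IDs in the count file, were followed across naïve mouse embryonic stem cells (naïve mESCs), primed mouse epiblast stem cells (primed mEpiSCs) and mouse embryonic fibroblasts (MEFs). Members were taken from a list of gene symbols matched to the Ensembl IDs of the file, and all 35 were found. They belong to 8 imprinted clusters with 2 to 5 members each and 8 members treated singly, and 22 are known to be expressed from the paternal and 11 from the maternal copy. For *Gnas* the copy depends on the transcript and for *Grb10* on the tissue.

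The cells were OG2 ESCs of a C57 x CBA background, a line that carries GFP driven by the distal Oct4 promoter, so that every naïve and primed library came from the same transgenic line. Naïve mESCs were kept in serum with LIF (S/L), and primed mEpiSCs were derived from them by culture in F/A medium, which holds Fgf2 and Activin A. Both states grew on mitomycin C-treated MEF feeders and were sampled early, at passage 5 (P5), and late, at passage 15 (P15). Poly(A) RNA was sequenced from 2 libraries of each state at each passage and from 1 library of MEFs alone. The paper's figure captions on expression levels call the repeats of naïve and primed cells biological. No source says whether they came from separate cultures. The counts do not tell the parental copies apart, so that a higher count is more RNA from the locus and says nothing about its imprint.

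At an imprinted cluster, a differentially methylated control region carries DNA methylation on 1 parental copy, laid down in the germline and copied at each cell division. The methylated copy of most such regions is bound by the zinc finger protein ZFP57, which recruits TRIM28 and keeps the methylation through early development. Many of the genes regulate growth of the embryo and placenta, with *Igf2*, its receptor *Igf2r*, *H19* and *Grb10* as the textbook set, and cultured pluripotent cells are known for imprints that change with culture.

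The state of the cells and the depth bear on all values. The 8 libraries of naïve and primed cells had 14378051 to 20985136 counts each, and the MEF library 25646547. A list of 6 naïve markers summed to 1358 to 1558 CPM (read counts after scaling every library to one equal size) in the naïve libraries and 50.7 to 155 CPM in the primed libraries, and a list of 6 primed markers summed to 49.6 to 74.4 CPM against 705 to 777 CPM. Fibroblast markers were present in every library, and 24 of them summed to 9343 and 9367 CPM in the naïve P5 libraries, 5544 and 5419 CPM in the primed P5 libraries, 15763 and 16385 CPM in the naïve P15 libraries, 13780 and 13341 CPM in the primed P15 libraries and 75290 CPM in MEFs. All were above 0 in each library, and the median marker stood at 15.6% to 25.2% of its level in MEFs, with single markers from 0.457% (*Ogn*) to 354% (*Dcn*). Of 2 other lineages, 8 trophoblast genes summed to 29.8 to 80.7 CPM. The 6 primitive endoderm genes summed to 99.4 and 95.5 CPM in naïve P5, 286 and 294 in primed P5, 65.6 and 65.7 in naïve P15 and 241 and 236 in primed P15 libraries, and to 415 CPM in MEFs. All 6 were called higher in primed cells at both passages, with medians of log2 2.42 and 1.92, and their part in the members' values was not tested. In bulk samples fewer cells of a type and less RNA per cell cannot be told apart.

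Because both states grew on MEF feeders and MEFs express many imprinted genes, each member is given with its MEF level. No source says whether the MEF library came from mitomycin C-treated feeders, so its levels may differ from those of the feeders. The members together held 0.315% to 0.339% of the counts in the naïve libraries, 0.503% in both primed P5 libraries, 0.459% and 0.463% in the primed P15 libraries and 1.78% in MEFs. Of the 35 members, 21 were below the MEF level in all 8 libraries, and 6 of these (*H19*, *Dlk1*, *Rtl1*, *Meg3*, *Zim1* and *Plagl1*) lay below the median fibroblast marker in all 8, measured as a share of the MEF level. A further 9 were above the MEF level in all 8 libraries (*Ascl2*, *Slc22a18*, *Phlda2*, *Peg10*, *Snrpn*, *Magel2*, *Mkrn3*, *Slc38a4* and *Zdbf2*). The part of feeder RNA in a member's level was not tested beyond 2 subtractions of scaled MEF counts, at the lowest and at the median ratio of the fibroblast markers. The lowest ratio was 3.76% and 3.99% in naïve P5 and 0.457% and 0.714% in primed P5 libraries. It was 6.61% and 6.3% in naïve P15 and 1.56% and 1.95% in primed P15 libraries. The subtraction at the lowest ratio thus took more from naïve than from primed libraries, and more at P15 than at P5. A change seen only after it cannot be told apart from these unequal amounts. The plot of shares of the MEF level sets the members against the range of the fibroblast markers.

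**Figure D1:**
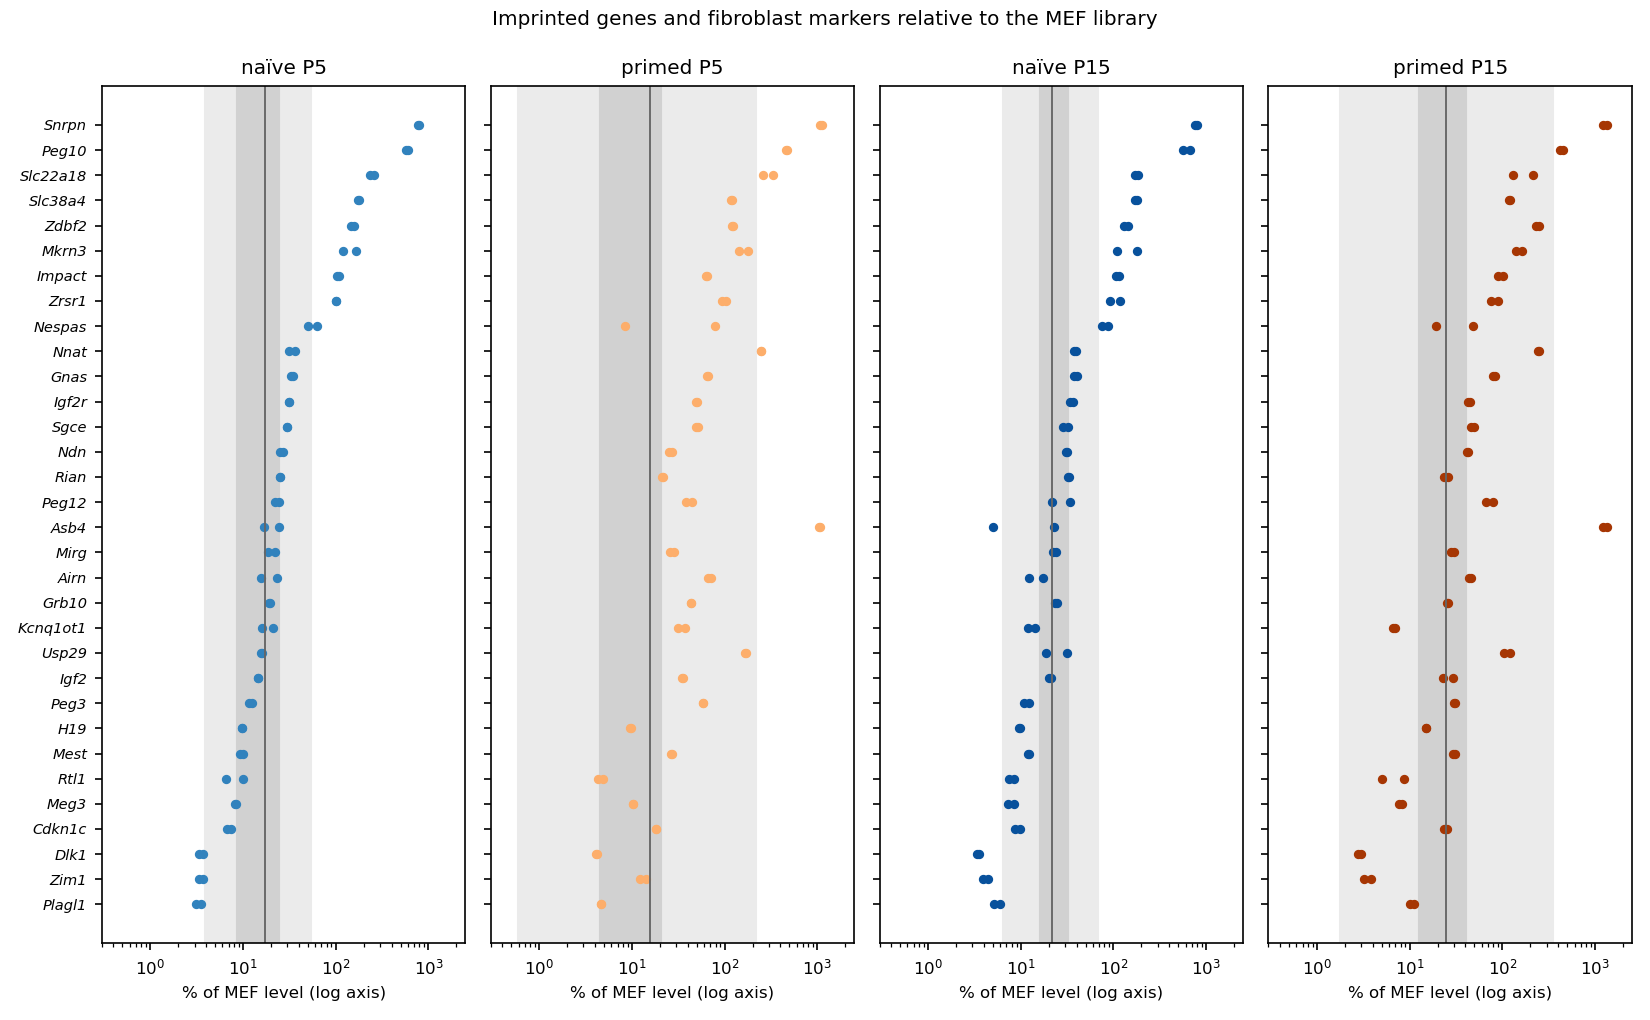
Level of each imprinted gene with more than 3 counts in MEFs as a share of its MEF level (%, log axis), 1 panel per group with 1 point per library. The light band spans the 24 fibroblast markers, the dark band their interquartile range and the line their median, and *Dlk1*, *Zim1* and *Plagl1* lie left of the median in every panel while *Snrpn*, *Peg10*, *Slc22a18*, *Slc38a4*, *Zdbf2* and *Mkrn3* lie above 100%.

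At P5, most imprinted genes were higher in primed than in naïve cells. All 35 passed the filter on low counts, and 21 rose and 6 fell from naïve to primed cells (adjusted p under 0.01, edgeR). Over the 16482 genes tested, 31.2% were higher and 31.1% lower by the same rule. A change of at least 2-fold was reached upwards by 11 members and downwards by 1, *Phlda2*, against 13.5% and 8.85% of all genes tested. The median log2 fold change of the members was 0.50, and that of all genes was 0.00776. Scaling by library size alone, which moved the median of all genes to 0.211, gave 23 higher and 3 lower members.

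At P15, 18 members were higher in primed cells and 5 lower, where 28.2% and 28.4% of the 15733 genes tested were. At least 2-fold changes were 10 upwards and 1 downwards, again *Phlda2*, against 12.2% and 11% of all genes. The median log2 fold change of the members was 0.324 and that of all genes −0.00387. By parental copy, 13 of the 22 paternally expressed members were higher and 4 lower at P5, and 13 higher and 3 lower at P15. Of the 11 maternally expressed members, 6 were higher and 2 lower at P5, and 4 higher and 2 lower at P15.

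In all, 15 members were higher in primed cells at both passages and 5 lower at both (*Phlda2*, *Rian*, *Peg10*, *Impact* and *Slc38a4*). Another 6 passed the test upwards at P5 alone, 2 upwards at P15 alone (*H19* and *Ndn*), and *Zdbf2* was lower at P5 and higher at P15. The remaining 6 (*Ascl2*, *Slc22a18*, *Rtl1*, *Mkrn3*, *Nespas* and *Zrsr1*) passed at neither. Calls at both passages were not counted over all genes, so whether these numbers exceed those of all genes was not tested. The effect of the state itself differed between the passages for 14 members, with a more positive difference at P15 for 5 and a more negative one for 9. Of 16926 genes tested for this, 24.1% differed, 13.3% in the first and 10.8% in the second direction. Scaling by library size alone moved the median of all genes to −0.114 in this test and gave 4 and 12 members.

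**Figure D2:**
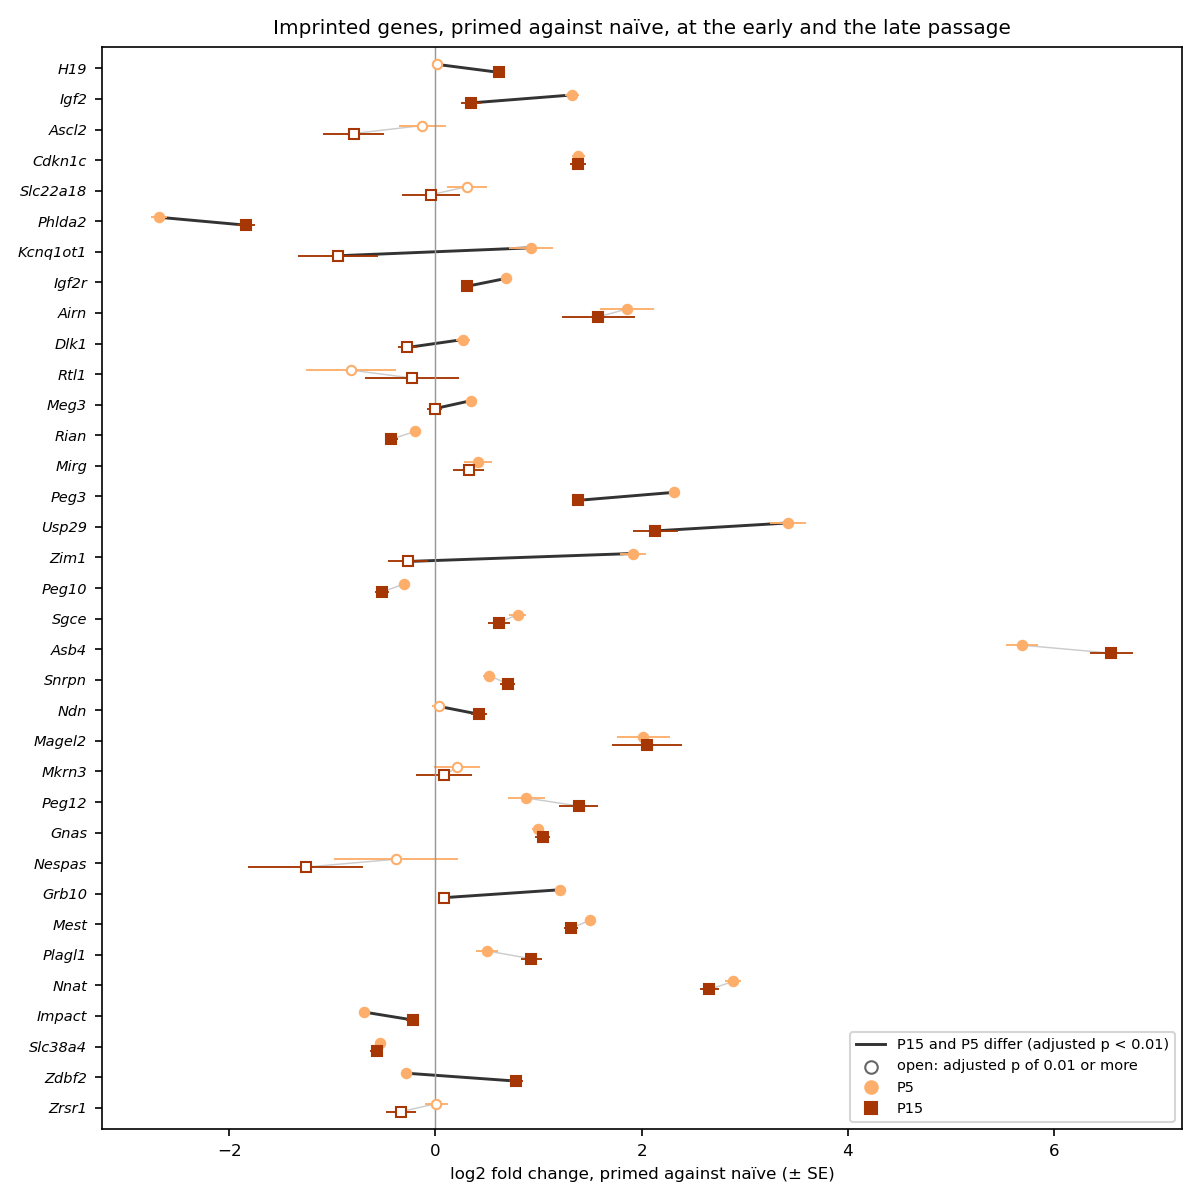
Log2 fold change of primed against naïve cells for each imprinted gene at P5 (circles) and P15 (squares), with its SE from 2 libraries per group, open symbols where the adjusted p was 0.01 or more. Dark lines join the values of the 14 members whose effect differed between the passages, among them *Zim1* (log2 1.92 at P5 and −0.26 at P15) and *Zdbf2* (−0.29 and 0.78).

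Levels per transcript length (RPKM, the CPM divided by the exon length in kilobases) put *H19* first in every group, at 412, 409, 411 and 636 RPKM in naïve P5, primed P5, naïve P15 and primed P15 cells and 4209 RPKM in MEFs. In naïve P5 cells *Phlda2* (68.9 RPKM), *Peg10* (53.7 RPKM) and *Slc38a4* (49.8 RPKM) came next. In primed P5 cells the places behind *H19* were taken by *Grb10* (78.5 RPKM), *Igf2r* (48.7 RPKM) and *Peg3* (45.1 RPKM), and in primed P15 cells by *Cdkn1c* (48.3 RPKM), *Grb10* (46.1 RPKM) and *Nnat* (44.1 RPKM).

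**Figure D3:**
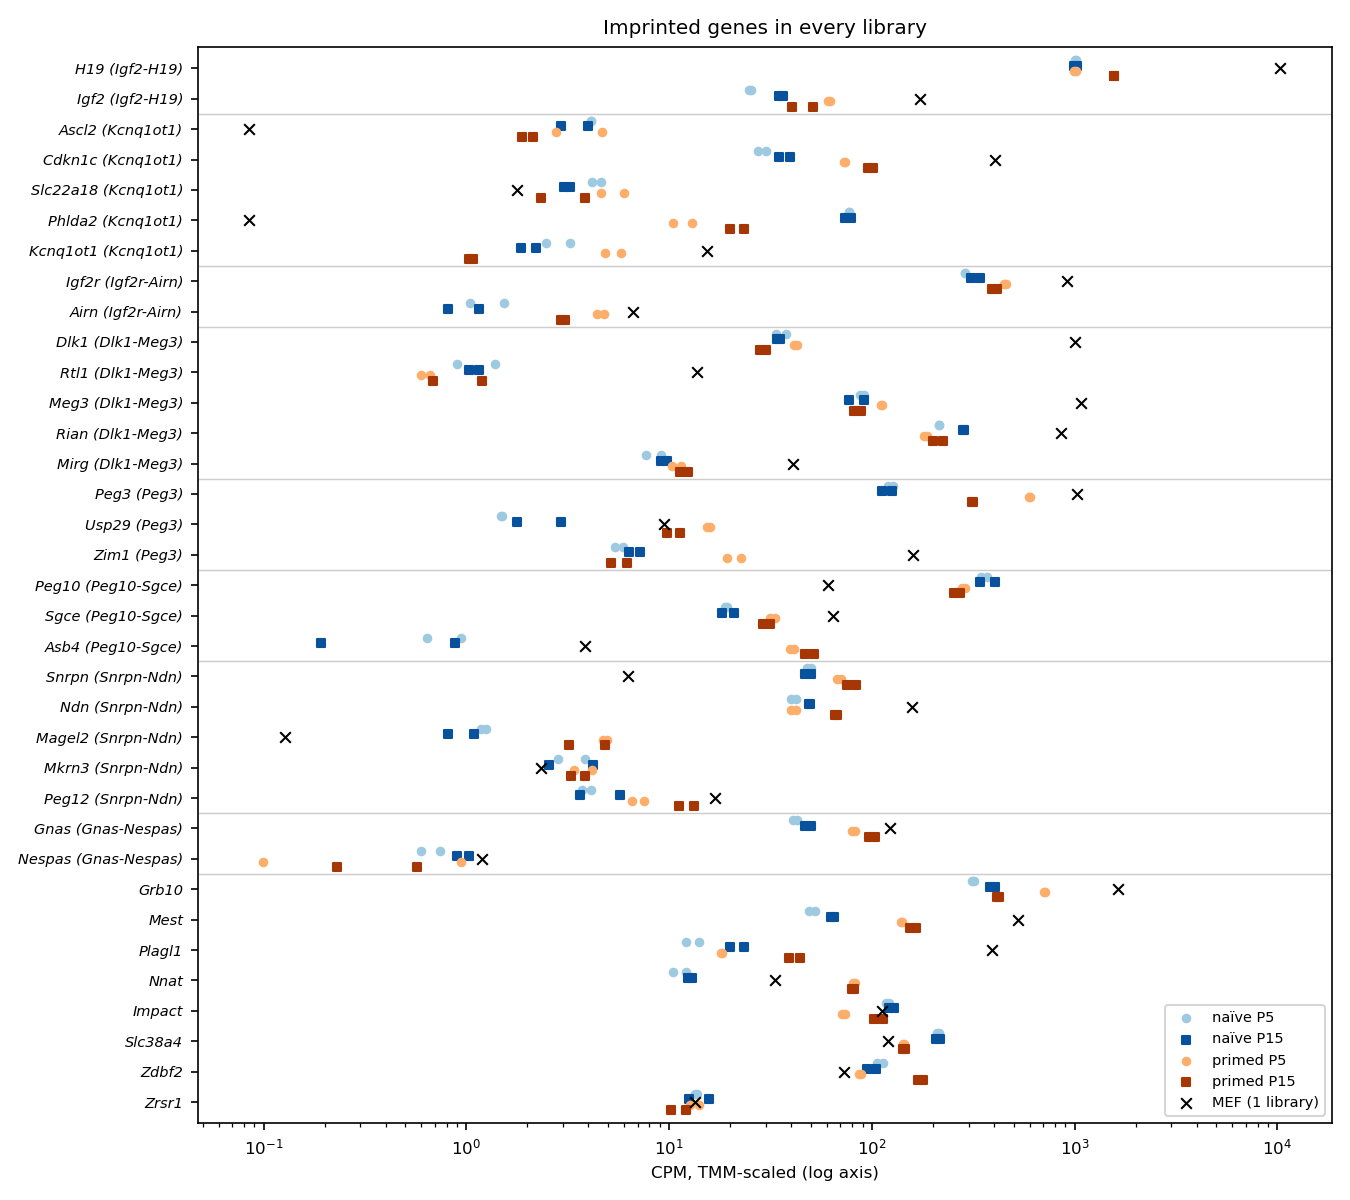
Level of each imprinted gene in every library (CPM, log axis), grouped by cluster, with 2 points per naïve or primed group and 1 for MEFs. The pairs of libraries mostly lie close together, *Asb4*, *Nnat*, *Usp29* and *Peg3* rise from the naïve to the primed groups at both passages, and *Phlda2* falls.

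The *Igf2* and *H19* cluster on chromosome 7 holds a growth factor made from the paternal copy and a long noncoding RNA made from the maternal copy, which share enhancers. *H19* (chr7:142575529-142578143, GRCm38, minus strand) also carries the primary transcript of 2 mature miRNAs, shown because their host was the highest member in every group. In these RefSeq sequences the seed, bases 2 to 8, is in capitals, and these poly(A) libraries did not measure the miRNAs themselves.
mmu-miR-675-5p: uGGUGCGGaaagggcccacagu
mmu-miR-675-3p: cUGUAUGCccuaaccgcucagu

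*H19* stood at 1007 and 1021 CPM in naïve P5, 999 and 1012 in primed P5, 1027 and 996 in naïve P15 and 1563 and 1564 in primed P15 libraries. MEFs had 10354 CPM. The 2 primed P15 libraries were above the other 6, which lay between 996 and 1027 CPM. The log2 fold change of primed against naïve cells was 0.019 ± 0.031 SE (adjusted p = 0.589) at P5 and 0.62 ± 0.052 SE (adjusted p = 5.89e-13) at P15, and the passages differed by 0.61 ± 0.052 SE (adjusted p = 4.75e-11), all in log2. Over these 6 libraries the fibroblast marker sum ran from 5419 to 16385 CPM, and the *H19* mean of the 3 groups was 9.71% to 9.79% of the MEF level. With the scaling by library size alone, which also moved the median of all genes at P5 to 0.211, *H19* was higher in primed cells at P5 as well (log2 0.22, adjusted p = 5.87e-07). It was also higher there after the lowest-marker subtraction (log2 0.60 ± 0.032 SE, adjusted p = 8.22e-13). With lowest ratios of 3.76% and 3.99% in naïve and 0.457% and 0.714% in primed P5 libraries, this took more from the naïve ones. The subtraction therefore cannot decide whether *H19* rose at P5.

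*Igf2* was measured at 25.3 and 24.9 CPM in naïve P5, 62.2 and 60.6 in primed P5, 36.5 and 34.98 in naïve P15 and 51.2 and 40.2 in primed P15 libraries. MEFs had 174 CPM. All 4 primed libraries were above all 4 naïve ones. Primed against naïve cells gave log2 1.32 ± 0.065 SE (adjusted p = 4.43e-17) at P5 and 0.34 ± 0.10 SE (adjusted p = 0.00184) at P15, with a difference between passages of −0.96 ± 0.12 SE (adjusted p = 1.89e-07). The call at P15 was lost with DESeq2's Wald test (adjusted p = 0.0359), without naïve P15 replicate 2 (adjusted p = 0.0192) and without primed P15 replicate 1 (adjusted p = 0.132). That of the difference was lost after the median-marker subtraction (log2 −3.06, SE 18200.0, adjusted p = 1), an SE that leaves the difference undetermined. Annotated exons of *Igf2* share 62.8% of their bases with the gene model Gm49394, which is listed at 0 in all 9 libraries, and how reads in shared bases were assigned is not given in the sources used here. The antisense gene *Igf2os*, which shares 1.71%, rose from 0.646 and 1.09 CPM to 8.40 and 7.16 CPM at P5 (log2 3.19 ± 0.25 SE, adjusted p = 2.67e-12). The counting of strand is not stated, so reads of *Igf2* and *Igf2os* in the shared bases cannot be told apart.

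The *Kcnq1ot1* cluster, also on chromosome 7, is held silent on the paternal copy by the noncoding RNA *Kcnq1ot1*, and its 4 coding members here are expressed maternally. Its members went in opposite directions. *Cdkn1c*, the cyclin-dependent kinase inhibitor p57, was at 30.1 and 27.3 CPM in naïve P5, 73.3 and 73.2 in primed P5, 34.9 and 39.7 in naïve P15 and 95.5 and 101 in primed P15 libraries. MEFs had 403 CPM. Primed libraries lay above naïve ones without overlap, with log2 fold changes of 1.38 ± 0.063 SE (adjusted p = 5.42e-18) at P5 and 1.39 ± 0.077 SE (adjusted p = 3.67e-18) at P15. In MEFs the gene was far higher, and the naïve level was 7.13% of it at P5 while the primed level was 18.2%. Antisense model Gm44732 shares 30.7% of the *Cdkn1c* exon bases and is listed at 0 in the 8 naïve and primed libraries.

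*Phlda2*, a restraint on placental growth, showed the reverse, with 77.3 and 77.2 CPM in the naïve P5 libraries and 79.1 and 74.1 CPM in the naïve P15 libraries. The primed levels were 12.97 and 10.5 CPM at P5 and 23.3 and 19.996 CPM at P15, below every naïve library. MEFs held 2 counts of it, at or under the floor of 3 counts. The log2 fold change was −2.68 ± 0.078 SE (adjusted p = 1.12e-22) at P5, a 6.41-fold fall, and −1.83 ± 0.088 SE (adjusted p = 4.37e-20) at P15, and the fall was smaller at P15 by 0.87 ± 0.13 SE (adjusted p = 1.98e-06). No other member passed the test with a fall of at least 2-fold in primed against naïve cells.

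*Kcnq1ot1* itself was scarce, at 3.23 and 2.47 CPM in naïve and 4.82 and 5.82 CPM in primed P5 cells, then 2.21 and 1.85 CPM in naïve and 1.03 and 1.08 CPM in primed P15 cells, with 15.4 CPM in MEFs. It was higher in primed cells at P5 (log2 0.93 ± 0.21 SE, adjusted p = 0.000336) and did not pass the test at P15 (log2 −0.94 ± 0.38 SE, adjusted p = 0.0299), with a difference between passages of −1.85 ± 0.40 SE (adjusted p = 0.000526). The P5 call was lost with DESeq2's Wald test (adjusted p = 0.0194) and without primed P5 replicate 2 (adjusted p = 0.0138). That of the difference was lost after the lowest-marker subtraction (log2 −1.60, SE 0.50, adjusted p = 0.0149) and after the median-marker subtraction (log2 −3.27, SE 11300.0, adjusted p = 1), while the difference itself stayed negative. *Ascl2*, a trophoblast transcription factor, stayed between 1.87 and 4.66 CPM in the 8 libraries and the transporter gene *Slc22a18* between 2.33 and 5.96 CPM. At P5 their log2 fold changes were −0.13 ± 0.23 SE (adjusted p = 0.627) and 0.31 ± 0.19 SE (adjusted p = 0.158), and at P15 −0.79 ± 0.30 SE (adjusted p = 0.0185) and −0.039 ± 0.28 SE (adjusted p = 0.912). *Ascl2* passed the test at P15 without naïve P15 replicate 2 (adjusted p = 0.00422) in the direction of lower levels.

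*Igf2r*, expressed maternally, encodes the receptor that takes up IGF2 for degradation, and *Airn* is the paternal noncoding RNA that overlaps and silences it in most tissues. Both rose in primed cells. *Igf2r* had 289 and 288 CPM in naïve P5, 459.6 and 448 in primed P5, 309 and 339.9 in naïve P15 and 415 and 392 in primed P15 libraries. MEFs had 919 CPM. All primed libraries were above all naïve ones, and the log2 fold change was 0.69 ± 0.035 SE (adjusted p = 7.02e-17) at P5 and 0.30 ± 0.058 SE (adjusted p = 2.37e-05) at P15, with a difference between passages of −0.37 ± 0.066 SE (adjusted p = 4.25e-05). *Airn* was detected at 1.54 and 1.04 CPM in naïve P5, 4.42 and 4.77 in primed P5, 0.810 and 1.15 in naïve P15 and 2.93 and 3.07 in primed P15 libraries. MEFs had 6.63 CPM. Its log2 fold change was 1.86 ± 0.26 SE (adjusted p = 3.23e-07) at P5 and 1.58 ± 0.35 SE (adjusted p = 0.000181) at P15. The call of *Airn* at P15 was lost with DESeq2's Wald test (adjusted p = 0.0131).

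The *Dlk1* and *Meg3* cluster on chromosome 12 has paternally expressed coding genes and a long maternally expressed noncoding stretch, *Meg3*, *Rian* and *Mirg*, that hosts one of the largest mammalian miRNA groups and many snoRNAs. No member of it passed the test with a 2-fold change. RefSeq places 14 miRNA genes with 26 mature sequences on *Mirg*, 3 genes with 6 on *Rian* and 2 with 3 on *Meg3*, and 6 with 11 lie opposite to *Rtl1*. A pair of mature sequences on *Mirg* share the seed GGUUGCC, and no other seed was shared among the miRNAs of the members. Shown are this pair, 1 further miRNA of *Mirg*, 1 of *Rian* and 2 that lie antisense to *Rtl1*, with the seed in capitals. Of their hosts, these libraries measured the RNA of *Mirg* and *Rian*. For the 2 antisense to *Rtl1*, *Rtl1* is not the host, and RefSeq places them on the same strand as no member they overlap.
mmu-miR-453: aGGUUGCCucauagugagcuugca
mmu-miR-496a-5p: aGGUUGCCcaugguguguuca
mmu-miR-410-3p: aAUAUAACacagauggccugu
mmu-miR-370-3p: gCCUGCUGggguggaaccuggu
mmu-miR-127-3p: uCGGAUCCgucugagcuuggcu
mmu-miR-136-5p: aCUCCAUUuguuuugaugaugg

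*Rian* was the only member of the cluster that was lower in primed cells at both passages, with 215 and 214 CPM in naïve P5, 186 and 181 in primed P5, 286 and 279.99 in naïve P15 and 200.4 and 224 in primed P15 libraries. MEFs had 858 CPM. The 4 naïve libraries lay between 214 and 286 CPM and the 4 primed ones between 181 and 224 CPM, so that the states overlapped across passages but not within one. In log2, primed against naïve cells gave −0.19 ± 0.038 SE (adjusted p = 4.89e-05) at P5 and −0.43 ± 0.061 SE (adjusted p = 1.3e-07) at P15. At P5 the call was lost after the lowest-marker subtraction (log2 −0.049, SE 0.04, adjusted p = 0.273) and without primed P5 replicate 2 (adjusted p = 0.0117), and its direction turned with the scaling by library size alone (log2 0.00999, adjusted p = 0.819).

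*Meg3* was at 91.3 and 87.7 CPM in naïve P5, 112 and 111 in primed P5, 77.6 and 91.8 in naïve P15 and 81.9 and 88.4 in primed P15 libraries. MEFs had 1076 CPM. It was higher in primed cells at P5 (log2 0.34 ± 0.045 SE, adjusted p = 9.57e-08) and not at P15, where the libraries of the states overlapped (log2 −0.0048 ± 0.074 SE, adjusted p = 0.96). It was called higher at P15 after the lowest-marker subtraction (log2 1.996, SE 0.23, adjusted p = 3.79e-08), which took more from the naïve libraries. The passages differed by −0.33 ± 0.091 SE (adjusted p = 0.00443). That call was lost with DESeq2's Wald test (adjusted p = 0.023), without naïve P5 replicate 2 (adjusted p = 0.0341), without primed P5 replicate 1 (adjusted p = 0.0139), without primed P5 replicate 2 (adjusted p = 0.0115), without naïve P15 replicate 2 (adjusted p = 0.0833) and without primed P15 replicate 1 (adjusted p = 0.0346). *Mirg* was at 7.66 and 9.10 CPM in naïve and 11.5 and 10.4 CPM in primed P5 cells (log2 0.42 ± 0.14 SE, adjusted p = 0.00771). This call was lost without the filter on low counts (adjusted p = 0.0396), in a fit of all 8 libraries (adjusted p = 0.011), with DESeq2's Wald test (adjusted p = 0.133), without naïve P5 replicate 1 (adjusted p = 0.128), without primed P5 replicate 1 (adjusted p = 0.0822) and without primed P5 replicate 2 (adjusted p = 0.0138). At P15 it had 9.72 and 9.08 CPM in naïve and 11.3 and 12.4 CPM in primed cells (log2 0.32 ± 0.15 SE, adjusted p = 0.0566). It was called higher at P15 after the lowest-marker subtraction (log2 0.62, SE 0.17, adjusted p = 0.00228), which took more from the naïve libraries and cannot decide this.

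*Dlk1*, a transmembrane relative of Notch ligands, was at 37.6 and 33.5 CPM in naïve P5, 41.3 and 42.6 in primed P5, 35.3 and 34.2 in naïve P15 and 29.9 and 28.1 in primed P15 libraries. MEFs had 1004 CPM. The 8 libraries lay between 2.79% and 4.24% of the MEF level. Its log2 fold change was 0.27 ± 0.07 SE (adjusted p = 0.00116) at P5 and −0.27 ± 0.093 SE (adjusted p = 0.0108) at P15, with a difference between passages of −0.52 ± 0.11 SE (adjusted p = 0.000503). The P5 call was lost without the filter on low counts (adjusted p = 0.017), with DESeq2's Wald test (adjusted p = 0.0517), without naïve P5 replicate 2 (adjusted p = 0.0681) and without primed P5 replicate 2 (adjusted p = 0.014). At P15 *Dlk1* was called lower with DESeq2's size factors (adjusted p = 0.0085) and in a fit of all 8 libraries (adjusted p = 0.00604), and the call of the difference was lost after the lowest-marker subtraction (log2 −1.67, SE 3340.0, adjusted p = 1). After that subtraction *Dlk1* was called higher at P15 (log2 10.47, SE 0.71, adjusted p = 5.8e-12). It lay below the lowest marker ratio in 4 libraries, all naïve, so that this fold is no bound and cannot decide the direction. *Rtl1*, a coding gene of retrotransposon origin, had 0.596 to 1.39 CPM in the 8 libraries and 13.7 CPM in MEFs, and its log2 fold change was −0.82 ± 0.44 SE (adjusted p = 0.0974) at P5 and −0.23 ± 0.45 SE (adjusted p = 0.678) at P15.

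The *Peg3* cluster on chromosome 7 was the only one of the 8 clusters with all its members, 3 here, at least 2-fold higher in primed cells at P5. *Peg3* and *Zim1* encode zinc finger proteins, the first from the paternal and the second from the maternal copy, and *Usp29* encodes a paternally expressed deubiquitinating enzyme. *Peg3* and *Usp29* are transcribed in opposite directions from one start region, and the promoter window of *Peg3* in RefSeq (chr7:6730370-6730669, GRCm38.p6, minus strand, 250 bases before to 50 after the start) overlaps that of *Usp29*. It is shown because both genes moved together, and the 263 bases that lie in both windows are in capitals.
Peg3: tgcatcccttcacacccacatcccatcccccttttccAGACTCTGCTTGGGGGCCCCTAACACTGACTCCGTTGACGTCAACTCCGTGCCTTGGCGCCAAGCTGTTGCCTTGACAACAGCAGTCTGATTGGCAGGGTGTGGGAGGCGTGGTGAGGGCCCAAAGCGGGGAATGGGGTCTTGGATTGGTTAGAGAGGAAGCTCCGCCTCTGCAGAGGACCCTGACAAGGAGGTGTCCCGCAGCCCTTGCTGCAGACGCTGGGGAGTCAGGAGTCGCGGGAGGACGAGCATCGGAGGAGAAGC

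*Peg3* was at 128 and 119.5 CPM in naïve P5, 596 and 606 in primed P5, 126 and 112 in naïve P15 and 316 and 312 in primed P15 libraries. MEFs had 1029 CPM. Primed libraries were above naïve ones at both passages, and those of P5 above those of P15. The log2 fold change was 2.31 ± 0.039 SE (adjusted p = 8.01e-29) at P5, a 4.97-fold rise, and 1.39 ± 0.063 SE (adjusted p = 1.02e-20) at P15, with a difference between passages of −0.91 ± 0.071 SE (adjusted p = 7.27e-12). The call of the difference was lost after the median-marker subtraction (log2 −2.68, SE 5730.0, adjusted p = 1). The primed level was 58.4% of the MEF level at P5 and 30.5% at P15. From naïve to primed cells at P5 the fibroblast marker sum fell from 9343 and 9367 CPM to 5544 and 5419 CPM. The median marker went from 17% and 17.6% to 15.6% of its MEF level, and of the 24 markers 6 were called higher and 14 lower. The part of feeder RNA in the levels of *Peg3* was not tested beyond the subtractions.

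*Usp29* followed with 1.49 and 1.48 CPM in naïve P5, 15.4 and 15.97 in primed P5, 1.77 and 2.94 in naïve P15 and 9.81 and 11.4 in primed P15 libraries. MEFs had 9.40 CPM. All 4 primed libraries were above the MEF level and all 4 naïve ones below it. Its log2 fold change was 3.42 ± 0.17 SE (adjusted p = 8.59e-17) at P5 and 2.13 ± 0.22 SE (adjusted p = 9.65e-11) at P15, with a difference of −1.27 ± 0.31 SE (adjusted p = 0.00172). The last call was lost after the median-marker subtraction (log2 −6.78, SE 1.86, adjusted p = 0.0178) and without naïve P15 replicate 2 (adjusted p = 0.102), the first of these with a larger difference and a wider SE. Exons of *Usp29* share 14.3% of their bases with *Zim3* on the other strand.

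*Zim1* was higher at P5 and not at P15. Its levels were 5.92 and 5.39 CPM in naïve P5, 19.4 and 22.5 in primed P5, 6.33 and 7.16 in naïve P15 and 6.20 and 5.17 in primed P15 libraries. MEFs had 160.2 CPM. Only the primed P5 libraries stood apart from the other 6, which lay between 5.17 and 7.16 CPM. Primed cells differed from naïve ones by log2 1.92 ± 0.13 SE (adjusted p = 3.83e-14) at P5 and −0.26 ± 0.20 SE (adjusted p = 0.237) at P15, and the difference was −2.17 ± 0.22 SE (adjusted p = 2.8e-09), the most negative of the 35 members. That call was lost after the lowest-marker subtraction (log2 −2.81, SE 7180.0, adjusted p = 1), where the SE leaves the difference undetermined. At P15 *Zim1* was called higher after the same subtraction (log2 8.48, SE 1.04, adjusted p = 1.67e-07). It lay below the lowest marker ratio in 4 libraries, all naïve, so that this fold is no bound and cannot decide the direction.

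The *Peg10* and *Sgce* cluster on chromosome 6 held the member with the strongest rise. *Asb4*, a maternally expressed gene for an ankyrin repeat protein of ubiquitin ligases, was close to the floor in naïve cells, with 19 and 13 counts at P5 and 12 and 3 at P15. The primed levels were 39.6 and 41.3 CPM at P5 and 46.9 and 51.9 CPM at P15, and MEFs had 3.83 CPM. In log2, primed cells exceeded naïve ones by 5.69 ± 0.15 SE (adjusted p = 1.5e-23) at P5 and 6.55 ± 0.21 SE (adjusted p = 1.64e-25) at P15, and the difference between passages did not pass the test (0.88 ± 0.48 SE, adjusted p = 0.163). The P15 value rests on few naïve counts, and it was log2 7.92 without naïve P15 replicate 1 and 5.76 without naïve P15 replicate 2.

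*Sgce*, which encodes epsilon-sarcoglycan, and *Peg10*, a gene of retrotransposon origin needed for the placenta, are both expressed from the paternal copy and start close to each other, but they went apart. *Sgce* was at 19.2 and 18.9 CPM in naïve P5, 33.3 and 31.6 in primed P5, 18.2 and 20.9 in naïve P15 and 29.04 and 31.4 in primed P15 libraries. MEFs had 63.96 CPM. All primed libraries were above all naïve ones (log2 0.80 ± 0.083 SE, adjusted p = 8.9e-10 at P5 and 0.61 ± 0.11 SE, adjusted p = 4.38e-06 at P15). *Peg10* was at 370.3 and 346 CPM in naïve P5, 287 and 279.8 in primed P5, 407 and 342 in naïve P15 and 255 and 272 in primed P15 libraries. MEFs had 60.8 CPM. All primed libraries were below all naïve ones (log2 −0.31 ± 0.037 SE, adjusted p = 2.4e-08 at P5 and −0.52 ± 0.065 SE, adjusted p = 9.5e-09 at P15), and the P5 call was lost with scaling by library size alone (adjusted p = 0.0155). The state effect on *Peg10* differed between the passages with scaling by library size alone (adjusted p = 0.00239) and without naïve P15 replicate 2 (adjusted p = 0.000838), but not in all 8 libraries (−0.20 ± 0.079 SE, adjusted p = 0.0555).

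The *Snrpn* and *Ndn* cluster on chromosome 7, the counterpart of the human Prader-Willi region, has paternally expressed genes with a role in neurons. Of its 5 members, 3 were higher in primed cells at P5 and 4 at P15, and none was lower. Among all genes tested, 31.2% were higher and 31.1% lower at P5, with 28.2% and 28.4% at P15. *Snrpn*, which encodes a spliceosomal Sm protein, was at 49.9 and 47.7 CPM in naïve P5, 66.9 and 70.3 in primed P5, 46.8 and 49.9 in naïve P15 and 83.1 and 75.5 in primed P15 libraries. MEFs had 6.25 CPM. Primed and naïve libraries did not overlap, and the log2 fold change was 0.52 ± 0.057 SE (adjusted p = 2.13e-09) at P5 and 0.70 ± 0.075 SE (adjusted p = 3.12e-10) at P15. *Snrpn* shares 27.3% of its exon bases with Gm38393 on the same strand, and 10% with *Snurf*, which is listed at 0 in all libraries. Gm38393 rose from 8.60 and 7.42 CPM in naïve to 26.5 and 22.4 CPM in primed P5 libraries (log2 1.64 ± 0.12 SE, adjusted p = 2.04e-13). At P15 its log2 fold change was −0.053 ± 0.17 SE (adjusted p = 0.805), a difference between passages of −1.68 ± 0.21 SE (adjusted p = 1.74e-07). How reads in the shared bases were assigned is not given, so that the level of *Snrpn* itself is uncertain.

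*Ndn* and *Magel2* encode MAGE family proteins, and *Peg12* encodes a Frat protein of the Wnt pathway. *Ndn* had 42.02 and 39.8 CPM in naïve P5, 39.8 and 42.1 in primed P5, 48.98 and 49.6 in naïve P15 and 67.3 and 65.95 in primed P15 libraries. MEFs had 157 CPM. At P5 the states overlapped (log2 0.032 ± 0.066 SE, adjusted p = 0.679), and at P15 primed libraries were above naïve ones (log2 0.42 ± 0.075 SE, adjusted p = 6.13e-06), a difference between passages of 0.41 ± 0.10 SE (adjusted p = 0.00124). The last call was lost with scaling by library size alone (adjusted p = 0.0185), after the median-marker subtraction (log2 0.67, SE 0.18, adjusted p = 0.0157), with DESeq2's Wald test (adjusted p = 0.0102), without naïve P5 replicate 1 (adjusted p = 0.0123) and without primed P5 replicate 1 (adjusted p = 0.0221), and at P5 *Ndn* was called higher with scaling by library size alone (adjusted p = 0.00293).

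*Magel2* was at 1.24 and 1.19 CPM in naïve and 4.72 and 4.94 CPM in primed P5 cells and at 0.810 and 1.09 and 3.21 and 4.83 CPM at P15, with 3 counts in MEFs. Its log2 fold change was 2.02 ± 0.26 SE (adjusted p = 4.43e-08) at P5 and 2.05 ± 0.34 SE (adjusted p = 2.5e-06) at P15. *Peg12* was at 4.13 and 3.71 CPM in naïve P5, 7.55 and 6.54 in primed P5, 5.75 and 3.65 in naïve P15 and 11.2 and 13.3 in primed P15 libraries. MEFs had 16.9 CPM. It was higher in primed cells at both passages (log2 0.88 ± 0.18 SE, adjusted p = 7.31e-05 and 1.39 ± 0.19 SE, adjusted p = 4.63e-08), without overlap of the states. *Mkrn3*, a ubiquitin ligase gene, lay between 2.56 and 4.20 CPM in the 8 libraries, with log2 fold changes of 0.21 ± 0.23 SE (adjusted p = 0.419) and 0.084 ± 0.27 SE (adjusted p = 0.799).

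*Gnas*, on chromosome 2, encodes the stimulatory G protein alpha subunit and further transcripts that differ in their imprint. It was at 40.7 and 42.7 CPM in naïve P5, 82.5 and 79.6 in primed P5, 50.2 and 46.6 in naïve P15 and 104 and 96.8 in primed P15 libraries. MEFs had 123 CPM. The primed libraries lay above the naïve ones, with log2 fold changes of 0.99 ± 0.056 SE (adjusted p = 1.03e-15) at P5 and 1.04 ± 0.073 SE (adjusted p = 3.91e-15) at P15. The counts per gene do not separate its transcripts, and the antisense *Nespas*, with 31.4% of its exon bases shared with *Gnas*, had 0.0994 to 1.03 CPM in the 8 libraries and log2 fold changes of −0.38 ± 0.60 SE (adjusted p = 0.584) and −1.26 ± 0.56 SE (adjusted p = 0.0455).

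Of the members treated singly, *Nnat* and *Mest* rose most. The promoter windows of these genes and of *Zdbf2*, whose direction turned between the passages, are shown because each holds the hexamer TGCCGC, the core of the sequence that ZFP57 recognises when methylated. Matches on either strand are in capitals, in RefSeq sequence of GRCm38.p6, at chr2:157559828-157560127 (*Nnat*, plus strand), chr6:30737800-30738099 (*Mest*, plus strand) and chr1:63200108-63200407 (*Zdbf2*, plus strand), with 1, 2 and 3 matches. *Nnat* has no other window in the table. Of the other windows of *Mest*, 1 starts 3 bases further on and holds the same 2 matches and 1 (chr6:30733256-30733555) holds 0. The other window of *Zdbf2* (chr1:63273019-63273318) also holds 0 matches, and the one shown lies upstream of it. The hexamer was found in 9 of the 28 members with a window (32.1%), and in 13.1% of 27025 genes with windows of the same length. By window the shares were 22.2% of 45 and 11.6% of 32851, and the members' windows had a median of 11 CpG dinucleotides against 7. A match of letters is no evidence of binding.
Nnat: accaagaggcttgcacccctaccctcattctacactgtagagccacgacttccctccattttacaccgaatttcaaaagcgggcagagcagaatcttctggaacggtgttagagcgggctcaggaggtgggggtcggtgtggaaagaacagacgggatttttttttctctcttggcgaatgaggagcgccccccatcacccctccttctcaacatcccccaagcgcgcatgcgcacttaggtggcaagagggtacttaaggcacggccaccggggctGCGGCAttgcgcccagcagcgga
Mest: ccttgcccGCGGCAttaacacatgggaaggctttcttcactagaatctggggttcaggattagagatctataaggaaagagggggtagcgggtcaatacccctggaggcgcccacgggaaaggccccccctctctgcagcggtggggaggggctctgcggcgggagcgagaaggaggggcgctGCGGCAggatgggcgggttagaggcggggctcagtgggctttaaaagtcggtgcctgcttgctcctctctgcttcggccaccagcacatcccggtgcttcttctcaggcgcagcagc
Zdbf2: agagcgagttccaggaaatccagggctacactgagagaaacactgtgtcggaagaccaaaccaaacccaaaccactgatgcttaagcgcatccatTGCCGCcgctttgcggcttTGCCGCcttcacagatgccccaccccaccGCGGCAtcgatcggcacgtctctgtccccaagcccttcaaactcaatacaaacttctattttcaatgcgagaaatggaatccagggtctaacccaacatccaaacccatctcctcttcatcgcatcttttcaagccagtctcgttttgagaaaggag

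*Nnat*, for the small membrane protein neuronatin, was at 12.1 and 10.5 CPM in naïve P5, 81.1 and 82.5 in primed P5, 12.4 and 12.98 in naïve P15 and 81.8 and 79.5 in primed P15 libraries. MEFs had 33.2 CPM. All 4 primed libraries were above MEFs and all 4 naïve ones below. The log2 fold change was 2.89 ± 0.074 SE (adjusted p = 4.36e-24) at P5, a 7.40-fold rise, and 2.66 ± 0.092 SE (adjusted p = 2.15e-24) at P15, and the difference between passages did not pass the test (−0.22 ± 0.12 SE, adjusted p = 0.19).

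*Mest*, for a hydrolase-like protein of mesoderm, was at 52.5 and 49.2 CPM in naïve P5, 139.8 and 142 in primed P5, 64.96 and 62.5 in naïve P15 and 164 and 155 in primed P15 libraries. MEFs had 528 CPM. Primed libraries lay above naïve ones without overlap (log2 1.501 ± 0.049 SE, adjusted p = 1.52e-21 at P5 and 1.31 ± 0.067 SE, adjusted p = 3.79e-19 at P15). It shares 23.1% of its exon bases with *Copg2* on the other strand, which had 78.9 and 79.2 CPM in naïve and 82.4 and 81.1 CPM in primed P5 cells. *Mest* is also the host of a miRNA gene with these mature sequences, the seed again in capitals.
mmu-miR-335-5p: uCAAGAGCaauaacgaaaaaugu
mmu-miR-335-3p: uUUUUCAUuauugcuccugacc

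*Plagl1* is a zinc finger factor that is known to activate other imprinted genes. Its level was 12.1 and 14.002 CPM in naïve P5, 18.1 and 18.03 in primed P5, 23.4 and 20.02 in naïve P15 and 39.2 and 44.1 in primed P15 libraries. MEFs had 393 CPM. Within each passage the primed libraries were above the naïve ones, and all 8 libraries lay between 3.09% and 11.2% of the MEF level. Against naïve cells the log2 change was 0.50 ± 0.11 SE (adjusted p = 0.000143) at P5, where the call was lost with DESeq2's Wald test (adjusted p = 0.0142), and 0.93 ± 0.10 SE (adjusted p = 2.85e-10) at P15. The passages differed by 0.45 ± 0.15 SE (adjusted p = 0.0178), which passed the test without naïve P15 replicate 1 (adjusted p = 0.00676).

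*Grb10*, an adaptor that restrains insulin and IGF receptor signalling, was at 317 and 312 CPM in naïve P5, 716 and 710.2 in primed P5, 403 and 384 in naïve P15 and 414 and 423 in primed P15 libraries. MEFs had 1630.5 CPM. The primed P5 libraries stood above the other 6, and at P15 both states lay between 384 and 423 CPM. Its log2 fold change was 1.21 ± 0.034 SE (adjusted p = 3.18e-23) at P5 and 0.079 ± 0.056 SE (adjusted p = 0.212) at P15, and the difference between passages of −1.12 ± 0.059 SE (adjusted p = 6.05e-16) had the smallest adjusted p among the members. At P15 it passed the test with scaling by library size alone (adjusted p = 0.00357) and after the lowest-marker subtraction (log2 0.35, SE 0.059, adjusted p = 1.52e-05), in the direction of higher levels in primed cells. That subtraction took more from the naïve P15 libraries, so it cannot decide whether *Grb10* was higher.

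*Impact*, a regulator of the GCN2 kinase, and *Slc38a4*, an amino acid transporter gene important in the placenta, were lower in primed cells. *Impact* was at 122 and 118 CPM in naïve P5, 71.2 and 73.6 in primed P5, 128 and 121 in naïve P15 and 102 and 113 in primed P15 libraries. MEFs had 113 CPM. *Slc38a4* was at 215 and 209 CPM in naïve P5, 145 and 142 in primed P5, 208 and 216 in naïve P15 and 145 and 143 in primed P15 libraries. MEFs had 121 CPM. No primed library reached a naïve one for either gene. The log2 fold change of *Impact* was −0.69 ± 0.047 SE (adjusted p = 6.81e-14) at P5 and −0.22 ± 0.067 SE (adjusted p = 0.00407) at P15, a fall that was smaller at P15 by 0.49 ± 0.082 SE (adjusted p = 1.78e-05). Its P15 call was lost with scaling by library size alone (adjusted p = 0.131), after the median-marker subtraction (log2 −0.27, SE 0.088, adjusted p = 0.0249), with DESeq2's Wald test (adjusted p = 0.0288), without naïve P15 replicate 1 (adjusted p = 0.0309) and without primed P15 replicate 1 (adjusted p = 0.172). *Slc38a4* fell at both passages, with log2 −0.53 ± 0.039 SE (adjusted p = 5.38e-13) at P5 and −0.57 ± 0.06 SE (adjusted p = 1.99e-10) at P15 and a difference between passages of −0.02 ± 0.068 SE (adjusted p = 0.855).

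*Zdbf2*, a paternally expressed gene with a known role in feeding through the hypothalamus, was at 113 and 105 CPM in naïve P5, 86.3 and 88.9 in primed P5, 105 and 94.97 in naïve P15 and 168 and 178 in primed P15 libraries. MEFs had 72.6 CPM. It was below the naïve level in primed P5 cells and above it in primed P15 cells. Its change in primed against naïve cells was log2 −0.29 ± 0.048 SE (adjusted p = 4.07e-06) at P5, a call lost with scaling by library size alone (adjusted p = 0.108), and 0.78 ± 0.066 SE (adjusted p = 5.67e-13) at P15. The difference of 1.09 ± 0.082 SE (adjusted p = 2.78e-12) was the most positive among the members. *Zrsr1*, a retrogene for a splicing factor inside *Commd1*, was at 10.3 to 15.7 CPM in the 8 libraries (log2 0.0065 ± 0.11 SE, adjusted p = 0.962 and −0.33 ± 0.15 SE, adjusted p = 0.0438). It was called lower at P15 without naïve P15 replicate 2 (adjusted p = 0.0051), and reads may be split with the related *Zrsr2*.

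The comparison of P15 with P5 within a state asked how the genes changed with time in culture. In naïve cells 6 members were higher at P15 and 0 lower (edgeR), where 4.21% and 5.01% of 15683 genes tested were. At an unadjusted p under 0.05, 9 members were higher and 1 lower, and DESeq2 called 4 higher and 0 lower. The shares of all genes under these rules were not counted, so no excess of members can be read from them. The 6 were *Plagl1* (log2 0.73 ± 0.12 SE, adjusted p = 0.00103), *Igf2* (0.51 ± 0.08 SE, adjusted p = 0.000756), *Rian* (0.40 ± 0.042 SE, adjusted p = 2.95e-05), *Cdkn1c* (0.38 ± 0.087 SE, adjusted p = 0.00885), *Mest* (0.33 ± 0.063 SE, adjusted p = 0.00314) and *Grb10* (0.32 ± 0.043 SE, adjusted p = 0.000209), none of them by 2-fold, a change that 1.13% of all genes tested showed in either direction.

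All 6 are more abundant in MEFs than in any naïve library, but of all 35 members only 10 or 11 exceeded the MEF level in each naïve library. The fibroblast marker sum rose from 9343 and 9367 CPM to 15763 and 16385 CPM over the same comparison. The part of feeder RNA in these rises was not tested beyond the subtractions. When the MEF counts, scaled to the lowest fibroblast marker of each library, were subtracted, 31 members could be tested. *Plagl1*, with the strongest rise of the 6, was not among them. *Igf2*, *Rian* and *Grb10* were still called higher, *Cdkn1c* was at log2 −0.15 (adjusted p = 0.68) and *Mest* at 0.012 (adjusted p = 0.948), and *H19* (log2 −0.79), *Meg3* (log2 −1.57) and *Peg3* (log2 −0.62) were called lower. After subtraction at the median marker ratio, 21 members could be tested and 1 was called. The calls of *Cdkn1c* (adjusted p = 0.0597), *Mest* (0.0275) and *Plagl1* (0.0179) were lost without the filter on low counts, and those of *Cdkn1c* (adjusted p = 0.0499) and *Mest* (0.0176) with DESeq2's Wald test. Without single libraries, *Cdkn1c* was lost without naïve P5 replicate 2 (adjusted p = 0.0493) and without naïve P15 replicate 2 (adjusted p = 0.0673), and *Mest* without naïve P5 replicate 2 (adjusted p = 0.0283) and without naïve P15 replicate 1 (adjusted p = 0.0121). *Igf2r* was called higher without naïve P15 replicate 1 (adjusted p = 0.0015).

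In primed cells 11 members were higher at P15 than at P5 and 11 lower, while 24.3% and 22.8% of 15957 genes tested were. Over these libraries the fibroblast marker sum rose from 5544 and 5419 CPM to 13780 and 13341 CPM. By at least 2-fold 1 member rose and 2 fell, against 3.18% and 8.43% of all genes. Those that fell were *Kcnq1ot1* (log2 −2.35 ± 0.27 SE, adjusted p = 2.14e-08) and *Zim1* (−1.91 ± 0.13 SE, adjusted p = 2.11e-12), followed by *Peg3* (−0.97 ± 0.046 SE, adjusted p = 4.61e-16), *Ascl2* (−0.91 ± 0.27 SE, adjusted p = 0.00573), *Slc22a18* (−0.81 ± 0.23 SE, adjusted p = 0.00357) and *Grb10* (−0.80 ± 0.045 SE, adjusted p = 1.71e-14). *Usp29* (−0.60), *Dlk1* (−0.57), *Igf2* (−0.46), *Meg3* (−0.42) and *Igf2r* (−0.20) also fell. Of these 11, 8 are more abundant in MEFs than in primed P5 cells. Of all 35 members, 12 and 13 were above the MEF level in the 2 primed P5 libraries.

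The members that rose with passage in primed cells were led by *Plagl1* (log2 1.17 ± 0.088 SE, adjusted p = 9.05e-12), *Zdbf2* (0.95 ± 0.056 SE, adjusted p = 4.15e-14), *Phlda2* (0.85 ± 0.12 SE, adjusted p = 6.88e-07), *Peg12* (0.76 ± 0.14 SE, adjusted p = 5e-05), *Ndn* (0.67 ± 0.068 SE, adjusted p = 3.05e-09) and *H19* (0.61 ± 0.042 SE, adjusted p = 2.02e-12). *Impact* (0.54), *Cdkn1c* (0.39), *Gnas* (0.27), *Asb4* (0.26) and *Rian* (0.18) rose less. Of these 11, 8 are more abundant in MEFs than in primed P5 cells, and *Phlda2*, *Zdbf2* and *Asb4* are less abundant there. After the subtraction at the median marker ratio, *Cdkn1c* and *Rian* turned to a log2 fold change of −1.61 and −2.07.

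Some of these calls depended on a setting or a single library. *Ascl2* was lost after the median-marker subtraction (log2 −0.76, SE 0.33, adjusted p = 0.0707), with DESeq2's Wald test (adjusted p = 0.0895), without primed P5 replicate 2 (adjusted p = 0.206) and without primed P15 replicate 2 (adjusted p = 0.0229). *Slc22a18* was lost after the median-marker subtraction (log2 −0.78, SE 0.30, adjusted p = 0.0481), with DESeq2's Wald test (adjusted p = 0.0765), without primed P5 replicate 1 (adjusted p = 0.0537) and without primed P15 replicate 2 (adjusted p = 0.0896). *Asb4* was lost with scaling by library size alone (adjusted p = 0.146), in a fit of all 8 libraries (adjusted p = 0.0189), with DESeq2's Wald test (adjusted p = 0.0511), without primed P5 replicate 1 (adjusted p = 0.0925), without primed P5 replicate 2 (adjusted p = 0.0225) and without primed P15 replicate 2 (adjusted p = 0.0356). *Rian* was lost with scaling by library size alone (adjusted p = 0.488), after the lowest-marker subtraction (log2 0.13, SE 0.056, adjusted p = 0.0446), with DESeq2's Wald test (adjusted p = 0.0203), without primed P5 replicate 1 (adjusted p = 0.0533), without primed P5 replicate 2 (adjusted p = 0.15) and without primed P15 replicate 2 (adjusted p = 0.0703). *Gnas* was lost with scaling by library size alone (adjusted p = 0.0395) and without primed P5 replicate 2 (adjusted p = 0.0214) and *Igf2r* without primed P5 replicate 1 (adjusted p = 0.0135). *Mest* was called higher without primed P15 replicate 2 (adjusted p = 0.000339), *Snrpn* higher without primed P15 replicate 2 (adjusted p = 0.000291) and *Peg10* lower without primed P15 replicate 2 (adjusted p = 0.000501). Scaling by library size alone, which moved the median of all genes to −0.133, gave 8 higher and 16 lower members in place of 11 and 11.

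**Figure D4:**
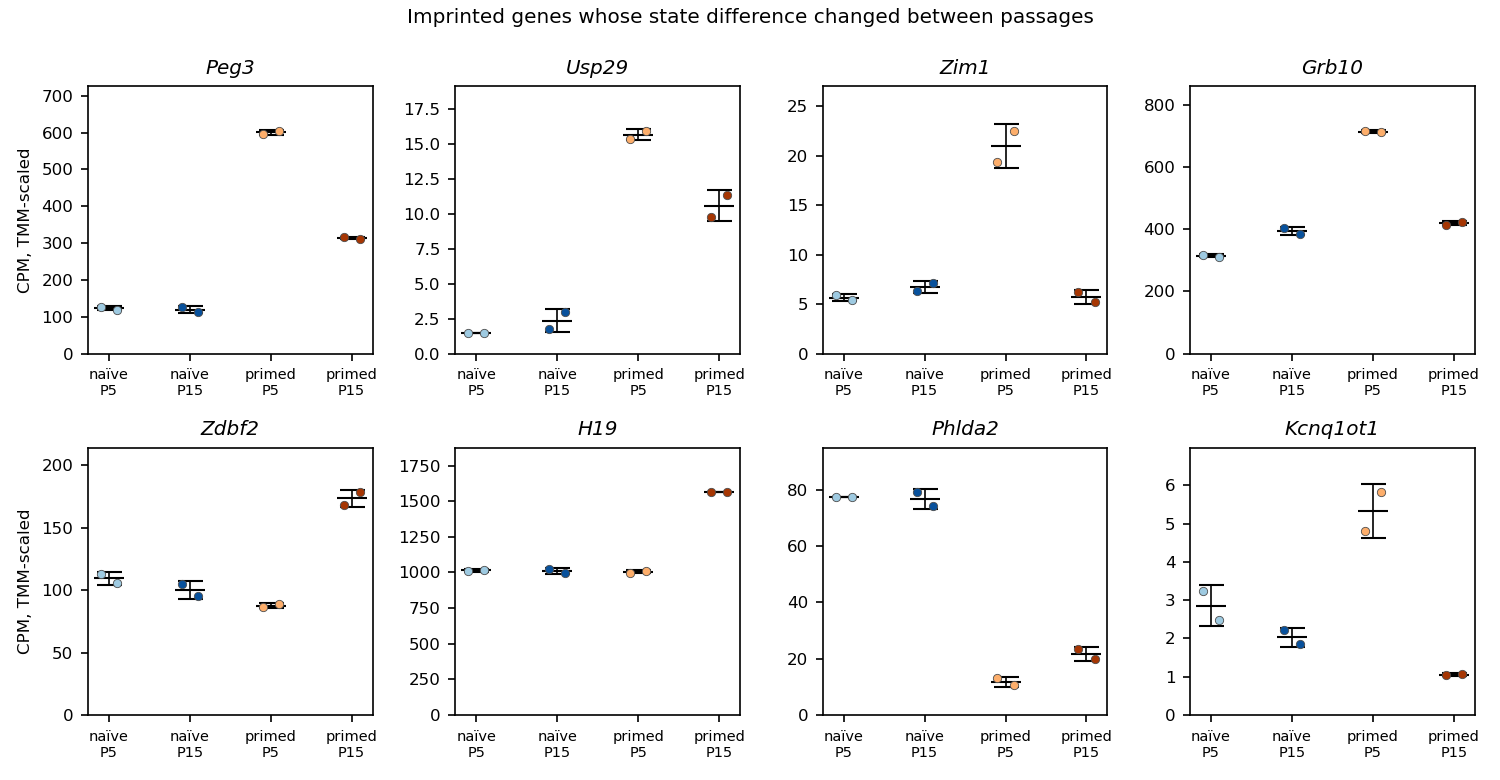
Level of 8 members whose state effect differed between the passages (CPM, linear axes from 0), with 1 point per library, the group mean and its SD (n = 2). *Peg3*, *Usp29*, *Zim1*, *Grb10* and *Kcnq1ot1* are highest in primed P5 cells, and *H19* and *Zdbf2* in primed P15 cells.

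The factors that write, read and erase imprints were listed beside the members. In primed cells at P5, 4 of the 20 such genes were up and 15 down, and at P15 4 were up and 12 down of 19 tested. Over all genes tested, 31.2% were higher and 31.1% lower at P5, and 28.2% and 28.4% at P15. Mean levels of *Tet3*, *Dnmt3b*, *Zfp445* and *Smchd1* were higher in primed than in naïve cells at both passages. At P5 they went from 15.3 to 50.4, 291 to 396, 69.1 to 94.3 and 97.6 to 129 CPM, in this order. MEFs had 108, 3.66, 91.9 and 68.6 CPM of them. *Tet1*, a dioxygenase that oxidises methylated cytosine, was at 484 and 457 CPM in naïve P5, 95.5 and 93.96 in primed P5, 501 and 438 in naïve P15 and 51.7 and 62.8 in primed P15 libraries. MEFs had 13.3 CPM. Its primed level was below every naïve library (log2 −2.28 ± 0.04 SE, adjusted p = 3.43e-28 at P5 and −3.05 ± 0.076 SE, adjusted p = 4.76e-29 at P15, with a difference of −0.75 ± 0.091 SE, adjusted p = 7.88e-08). *Dnmt3l*, the cofactor of de novo DNA methylation, was at 223 and 211 CPM in naïve P5, 33.05 and 31.4 in primed P5, 246 and 246 in naïve P15 and 1.32 and 0.398 in primed P15 libraries. MEFs had 0.128 CPM. It fell further at P15 than at P5 (log2 −2.72 ± 0.051 SE, adjusted p = 1.42e-27 and −8.16 ± 0.14 SE, adjusted p = 3.31e-34, difference −5.43 ± 0.18 SE, adjusted p = 3.75e-21).

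*Zfp57* was at 116 and 107 CPM in naïve P5, 63.8 and 62.1 in primed P5, 161 and 161 in naïve P15 and 39.02 and 40.6 in primed P15 libraries. MEFs had 61.5 CPM. The primed libraries lay below the naïve ones, more so at P15 (log2 −0.79 ± 0.05 SE, adjusted p = 1.66e-14 at P5 and −2.03 ± 0.069 SE, adjusted p = 1.37e-24 at P15, difference −1.22 ± 0.084 SE, adjusted p = 3.52e-13). Its partner *Trim28* fell by 1.24 at P5 and 0.84 at P15 on the log2 scale (adjusted p = 3.42e-24 and 2.43e-16). *Dppa3*, which protects maternal imprints from demethylation in the zygote and is also one of the 6 naïve markers, had log2 fold changes of −2.35 ± 0.093 SE (adjusted p = 2.19e-19) and −4.80 ± 0.18 SE (adjusted p = 3.7e-23), with a difference of −2.43 ± 0.24 SE (adjusted p = 1.49e-09), and *Hells*, a remodeller needed for DNA methylation, −1.09 ± 0.039 SE (adjusted p = 1.33e-20) and −1.19 ± 0.06 SE (adjusted p = 2.43e-19).

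**Figure D5:**
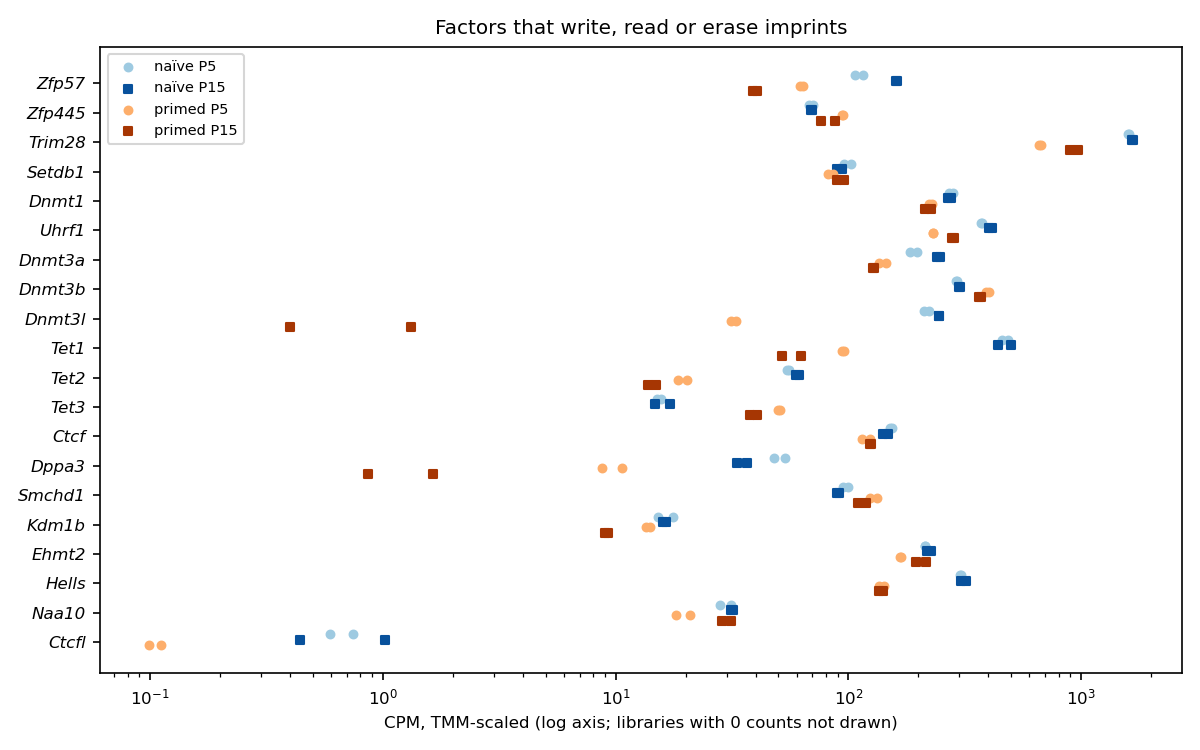
Level of the 20 imprint factors in the 8 naïve and primed libraries (CPM, log axis, libraries with 0 counts not drawn), with 1 point per library. *Tet1*, *Dnmt3l*, *Zfp57* and *Dppa3* are lower in all 4 primed libraries than in any naïve library.

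Around *Igf2* and its receptors, 10 further genes were listed, of which 8 rose and 1 fell in primed cells at P5 and 6 rose and 2 fell at P15, beside the same shares of all genes (31.2% and 31.1%, then 28.2% and 28.4%). *Igf1r*, the receptor through which IGF2 signals, was at 83.3 and 81.6 CPM in naïve P5, 169 and 168 in primed P5, 82.1 and 81.03 in naïve P15 and 96.5 and 96.6 in primed P15 libraries. MEFs had 209 CPM. It was higher in the primed libraries at both passages, more so at P5 (log2 1.06 ± 0.043 SE, adjusted p = 3.24e-19 and 0.23 ± 0.067 SE, adjusted p = 0.00256, difference −0.81 ± 0.075 SE, adjusted p = 3.51e-10). The insulin receptor gene *Insr* and the receptor substrate gene *Irs1* had log2 fold changes of 1.09 ± 0.063 SE (adjusted p = 1.68e-15) and 1.32 ± 0.12 SE (adjusted p = 2.56e-11) at P5. *Igf2bp2*, an RNA-binding protein gene, was higher at both passages (log2 0.72 ± 0.041 SE, adjusted p = 1.15e-15 and 0.84 ± 0.062 SE, adjusted p = 1.23e-14), and *Igf2bp1* was lower (log2 −0.33 ± 0.035 SE, adjusted p = 1.76e-09 and −0.51 ± 0.056 SE, adjusted p = 4.73e-10).

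*Lin28b*, which blocks let-7 maturation, was higher at P15 (log2 0.51 ± 0.08 SE, adjusted p = 1e-06), and the effect of the state on *Lin28a* differed between the passages by −0.42 ± 0.059 SE (adjusted p = 9.28e-07). *Irs2* also differed between them (−0.44 ± 0.079 SE, adjusted p = 5.03e-05). *Igf1*, the paralogous ligand, was at 3.54 and 4.60 CPM in naïve and 13.7 and 15.7 CPM in primed P15 cells and 264 CPM in MEFs (log2 1.83 ± 0.17 SE, adjusted p = 1.72e-11, difference between passages 1.83 ± 0.29 SE, adjusted p = 1.04e-05).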

How the data were processed

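RNA-seq of 9 libraries was used. The authors deposited raw counts per gene, made from poly(A) RNA with reads trimmed by Cutadapt, aligned to mm10 by HISAT2 and assigned to Ensembl genes by featureCounts. The Ensembl release and the treatment of strand and of reads with several alignments are not given in the sources used here. Groups were read from the sample titles and column names. Names, coordinates and exon lengths come from GENCODE M21 (GRCm38), which named 54165 of 54232 IDs, and its overlapping genes may differ from the authors' release. The 67 other IDs stayed in without a name, and 92 spike-in entries with 0 counts were left out. The authors' own comparisons were not used.

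TMM factors over the 9 libraries set the library sizes behind each CPM, and an SD is over the 2 libraries of a group. Each comparison was a fit of its 4 libraries, or of all 8 for the difference between passages, by the quasi-likelihood test of edgeR 4.0.16 (R 4.3.3, limma 3.58.1) on genes that reached 10 counts in 2 or more of them. Every adjusted p is from that test unless another is named, with Benjamini-Hochberg adjustment over all genes tested, and calls needed an adjusted p below 0.01, with a fold of at least 2 where stated. P-values measure the spread between the 2 libraries of a group, called biological repeats in the paper but not stated to be separate cultures. MEFs entered no fit. A count of 0 allows up to 3 counts, or 0.148 to 0.221 CPM in the 8 libraries and 0.128 CPM in MEFs, for counting error only.

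The members, lists and tests were chosen with earlier results of these data known. All members are named, and of each further list the 4 genes with the smallest adjusted p at either passage and up to 4 whose state effect differed between the passages. Of the imprint factors, the 4 with higher mean levels in primed cells at both passages are named as well. As alternatives, the fits were repeated with scaling by library size alone or by DESeq2's size factors, without the filter on low counts, over all 8 libraries at once, with a replicate block and without each library in turn, beside DESeq2's Wald test (1.42.0) and 2 subtractions of feeder RNA, in which the MEF counts, scaled by the lowest or the median of the 24 ratios of fibroblast markers to MEFs, were taken from each library. The code was tested on simulated data. Promoter windows and miRNAs are those of RefSeq tables on GRCm38.p6, where 28 members had a window.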

Additional observations from a re-analysis of the deposited data

Results flagged for a closer look

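For 14 members the effect of the state differed between the passages, by the interaction of state and passage over all 8 naïve and primed libraries (edgeR). Given is the log2 fold change of primed against naïve cells at P15 less that at P5. It was positive for *H19* (0.61), *Phlda2* (0.87), *Ndn* (0.41), *Impact* (0.49) and *Zdbf2* (1.09). It was negative for *Igf2* (−0.96), *Kcnq1ot1* (−1.85), *Igf2r* (−0.37), *Dlk1* (−0.52), *Meg3* (−0.33), *Peg3* (−0.91), *Usp29* (−1.27), *Zim1* (−2.17) and *Grb10* (−1.12). The sign of the state effect itself turned for *Zdbf2*, from −0.29 at P5 to 0.78 at P15, both past the test. The fibroblast marker sum was lower in primed than in naïve cells by more at P5 (5419 to 5544 against 9343 to 9367 CPM) than at P15 (13341 to 13780 against 15763 to 16385 CPM). The median fibroblast marker, as a share of its MEF level, was lower in primed cells at P5 (15.6% against 17% and 17.6%) and higher at P15 (25.2% and 23.6% against 21.4% and 21.7%). The part of feeder RNA in these differences was examined only through the subtractions of feeder RNA.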

How the results depend on the processing

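The number of called members stayed within 1.5 times the reported one under every alternative at P5 (23 to 27, reported 27), at P15 (18 to 28, reported 23) and for P15 against P5 in primed cells (17 to 26, reported 22). For P15 against P5 in naïve cells it was 6, with 3 without the filter on low counts and 1 after the subtraction of feeder RNA at the median marker ratio. For the difference between passages it was 14, with 5 after that same subtraction. In both, fewer members could be tested after the subtraction (21 and 29 of 35), and the cause of the rest was not tested. Leaving out each library in turn gave 23 to 26 members at P5, 21 to 24 at P15, 12 to 15 for the difference between passages, 4 to 6 in naïve cells and 18 to 22 in primed cells. With a group left at 1 library, that library was assumed to vary like the other groups.

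Among members called as reported or under the alternative itself, directions turned under 3 alternatives. With library size alone, *Rian* at P5 went to log2 0.00999. After the subtraction at the lowest marker ratio, *Dlk1* (10.47), *Meg3* (1.996) and *Zim1* (8.48) turned at P15, *Meg3* in the difference between passages (0.91) and *Cdkn1c* in naïve cells between passages (−0.15). After that at the median ratio, *Cdkn1c* (−1.61), *Rian* (−2.07) and *Mest* (−0.79) turned in primed cells between passages. Subtraction took counts of a group to 0 in several of these, so that the fold depends on the prior count and is no bound.

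No label says that replicate numbers pair the samples. Deviations of same-numbered libraries from their group means had r = −0.0963 between the states at P5 and −0.116 at P15, and 0.132 between the passages in naïve and 0.142 in primed cells, over 11459 genes. The replicate block gave 27 called members at P5, 22 at P15, 14 for the difference between passages, 8 in naïve and 26 in primed cells, losing *Impact* at P15 (adjusted p = 0.0216) alone and adding 6 calls, all between passages within a state. Crossed pairs at P15, chosen after seeing the data, gave 24. Depth limits the members of a few counts per library (*Nespas*, *Rtl1*, *Airn*, *Kcnq1ot1* and *Asb4* in naïve cells).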

Other observations

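Of 48 further genes that are imprinted or lie inside imprinted clusters, 37 were tested at each passage, and 15 rose and 10 fell in primed cells at P5, and 12 rose and 10 fell at P15. Over all genes tested, 31.2% rose and 31.1% fell at P5 and 28.2% and 28.4% at P15. *Cobl*, an actin nucleator next to *Grb10*, was at 141 and 139 CPM in naïve P5, 19.1 and 18.4 in primed P5, 151 and 149.5 in naïve P15 and 5.51 and 6.31 in primed P15 libraries. MEFs had 7.40 CPM. It was lower in every primed library than in any naïve one (log2 −2.87 ± 0.058 SE, adjusted p = 1.13e-26 at P5 and −4.68 ± 0.094 SE, adjusted p = 5.44e-32 at P15, edgeR), with a difference between passages of −1.79 ± 0.12 SE (adjusted p = 1.56e-13). *Gab1*, an adaptor of receptor tyrosine kinases, was at 253 and 247 CPM in naïve P5, 90.8 and 87.6 in primed P5, 249.6 and 249.999 in naïve P15 and 31.3 and 26.6 in primed P15 libraries. MEFs had 42.9 CPM. It fell too, by more at P15 (log2 −1.45 ± 0.041 SE, adjusted p = 4.96e-23 and −3.12 ± 0.074 SE, adjusted p = 1.29e-29, difference −1.65 ± 0.083 SE, adjusted p = 1.83e-16). *Adam23*, which lies close to *Zdbf2*, had log2 fold changes of −1.30 ± 0.057 SE (adjusted p = 2.78e-18) and −1.63 ± 0.08 SE (adjusted p = 1.12e-19).

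*Tfpi2*, a protease inhibitor gene on chromosome 6, is separated from *Peg10* by *Sgce* among others. It was higher in primed cells at P15 (log2 2.87 ± 0.13 SE, adjusted p = 1.19e-20) and by less at P5 (log2 1.15 ± 0.14 SE, adjusted p = 1.36e-08, difference 1.73 ± 0.19 SE, adjusted p = 1.72e-08). *Snhg14*, the long transcript downstream of *Snrpn*, was at 15.4 and 14.7 CPM in naïve and 36.4 and 34.001 CPM in primed P5 cells (log2 1.26 ± 0.086 SE, adjusted p = 9.73e-14) and at 14.3 and 16.2 and 13.1 and 20.1 CPM at P15 (log2 0.11 ± 0.15 SE, adjusted p = 0.52). *Xist*, the noncoding RNA of X inactivation, was at 21.1 and 19.7 CPM in naïve P5, 40.6 and 42.7 in primed P5, 20.5 and 21.2 in naïve P15 and 15.5 and 18.1 in primed P15 libraries. MEFs had 189.5 CPM. Its state effect was 1.06 ± 0.077 SE (adjusted p = 3.8e-13) at P5 and −0.32 ± 0.12 SE (adjusted p = 0.0165) at P15 on the log2 scale, with a difference of −1.37 ± 0.14 SE (adjusted p = 1.59e-09).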
